A study of Mus musculus with 4 samples.

Results

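Estrogen receptor alpha (ESR1) occupied 1572 autosomal positions in mouse liver that lay far from every ESR1 site detected in uterus. These remote liver sites were chosen by their positions in the peak lists of both tissues: a liver peak shared no base with a uterus peak, and its summit, the base of highest signal, lay more than 50 kb from the nearest uterus summit on the same chromosome. They made up 22.8% of the 6896 autosomal liver peaks (95% Wilson interval 21.8 to 23.8) and 29.9% of the 5258 autosomal liver peaks without an overlapping uterus peak (28.7 to 31.1). The whole liver list held 6932 peaks and the whole uterus list 24836. The intervals cover counting error only and treat peaks as independent, although many lay in groups, as described further on.

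The series held ESR1 chromatin immunoprecipitation sequencing (ChIP-seq) and an input control, which is sequenced chromatin without immunoprecipitation, from liver and from uterus. Both tissues came from female C57BL/6 mice aged 8 weeks. The 4 samples were flash-frozen tissue, for which the labels name no genetic change, no hormone treatment and no number of animals per library. With 1 ESR1 library a tissue there was no spread between animals to compare with, and no test was made. Per the file headers, the liver ESR1 library had 20016495 unique tags among 21226844 in total. The uterus ESR1 library had 22298008 among 23718643. Peak lists carry no expression values, so the tissue labels were not checked against marker genes.

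ESR1, a receptor of the nuclear hormone receptor family, is activated by estrogens and reaches DNA either directly at estrogen response elements or through other DNA-bound factors. Which of its potential sites are occupied in a tissue is known to depend on chromatin that other factors of that cell type have opened. In the liver the receptor is known for roles in lipid and glucose metabolism, and in the uterus for driving growth of the epithelium and stroma.

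The remote sites were spread thinly over a large part of the genome. Positions more than 50 kb from any uterus summit made up 55.8% of the autosomal span, or 1336 Mb of the 2396 Mb that the 2 lists span from end to end on the autosomes. This territory held 1.18 liver peaks per Mb. The remaining 1059 Mb, within 50 kb of a uterus summit, held 5.03 liver peaks per Mb, which was 4.27 times as many. Counting only peaks without an overlapping uterus peak, the densities were 3.48 per Mb near uterus summits and 1.18 per Mb beyond 50 kb, a ratio of 2.96. Unsequenced and repeated DNA was not removed from the span, and its share in either territory was not tested.

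Beyond 1 kb, density fell with distance, with no step at 50 kb. Liver peaks without an overlapping uterus peak numbered 2.03 per Mb within 1 kb of a uterus summit, where most liver peaks overlap a uterus peak and are not counted, 4.82 per Mb at 1 to 5 kb from a uterus summit, 3.64 per Mb at 10 to 25 kb and 2.71 per Mb at 25 to 50 kb. The remote sites continued this series with 2.41 per Mb at 50 to 75 kb and 1.83 per Mb at 75 to 100 kb. Their density was 1.13 per Mb at 150 to 250 kb, 0.415 per Mb at 250 to 500 kb and 0.114 per Mb beyond 500 kb. The outermost territory, 246 Mb in all, thus contained 28 remote sites.

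**Figure D1:**
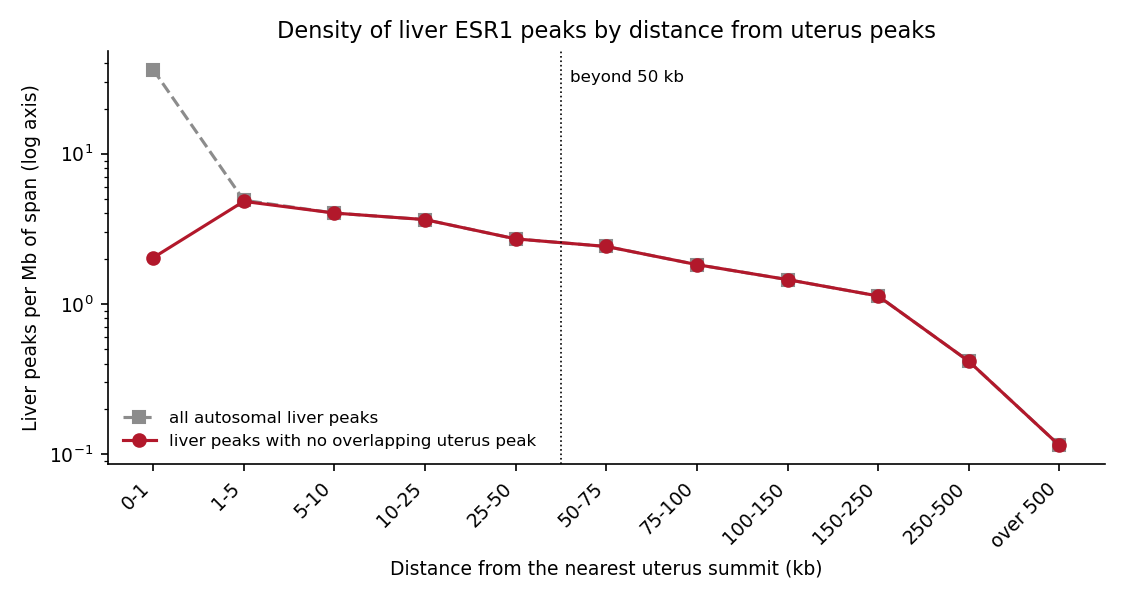
Liver ESR1 peaks per Mb of autosomal span (log axis) against distance from the nearest uterus summit in kb; grey squares are all autosomal liver peaks, red circles those without an overlapping uterus peak, and the remote sites lie right of the dotted line. The red points are at 2.03 per Mb within 1 kb and fall from 4.82 per Mb at 1 to 5 kb to 0.114 per Mb beyond 500 kb without a step at 50 kb.

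Remote sites lay at widely differing distances from uterus binding. The median distance to the nearest uterus summit was 91.8 kb, with quartiles of 66.6 and 148 kb, and for 90% of sites it was under 231 kb. In the window from 50 to 75 kb lay 566 sites, or 36.0% of them, 702 lay beyond 100 kb, and 129 of the 1572 had no uterus summit within 250 kb. The 5 sites just beyond the threshold, at 50.1 to 50.2 kb, ranged from 5.61- to 18.3-fold enrichment over control and from 46 to 98 tags. The 5 liver peaks just under it, at 49.8 to 49.9 kb, ranged from 6.53- to 34.0-fold and from 28 to 282 tags. The ranges on either side of the threshold overlapped. The length of the uterus list also sets the number of remote sites. Against the 6932 uterus peaks of highest fold enrichment, as many as there are liver peaks, 4342 liver peaks would meet the rule.

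The strength of remote sites was close to that of the liver-only peaks beside uterus sites. The measures are the authors' values per peak: fold enrichment of the ChIP signal over the local background, raw tags, width, and the score of the peak caller MACS, in which 100 corresponds to the p cutoff of 1e-10. Remote sites had a median fold enrichment of 10.9 (quartiles 8.64 and 14.0), and the 3686 liver-only peaks within 50 kb of a uterus summit had a median of 11.03 (8.94 and 14.3). Median tags were 55 (43 and 74) in remote sites and 56 (44 and 76) in those beside uterus sites. Median widths were 622 and 620 bp. The quartile ranges of these groups coincided almost fully.

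Liver peaks that overlapped a uterus peak formed the upper group. The 1638 autosomal peaks of this kind had a median fold enrichment of 11.9 (9.07 and 17.3), a median of 68 tags (50 and 98) and a median width of 678.5 bp. As a ratio of shares, the separation was wider at high than at moderate thresholds. A MACS score of at least 200 was reached by 34.8% of remote sites and 53.2% of overlapping peaks. A fold enrichment of at least 30 was reached by 28 remote sites, or 1.78% (1.24 to 2.56), by 1.90% (1.51 to 2.39) of the peaks beside uterus sites and by 8.42% (7.18 to 9.87) of the overlapping peaks. A MACS score of at least 1000 was reached by 14 remote sites, or 0.891%, and by 5.56% of overlapping peaks. No test of these differences was made, since peaks of 1 library are not replicates.

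**Figure D2:**
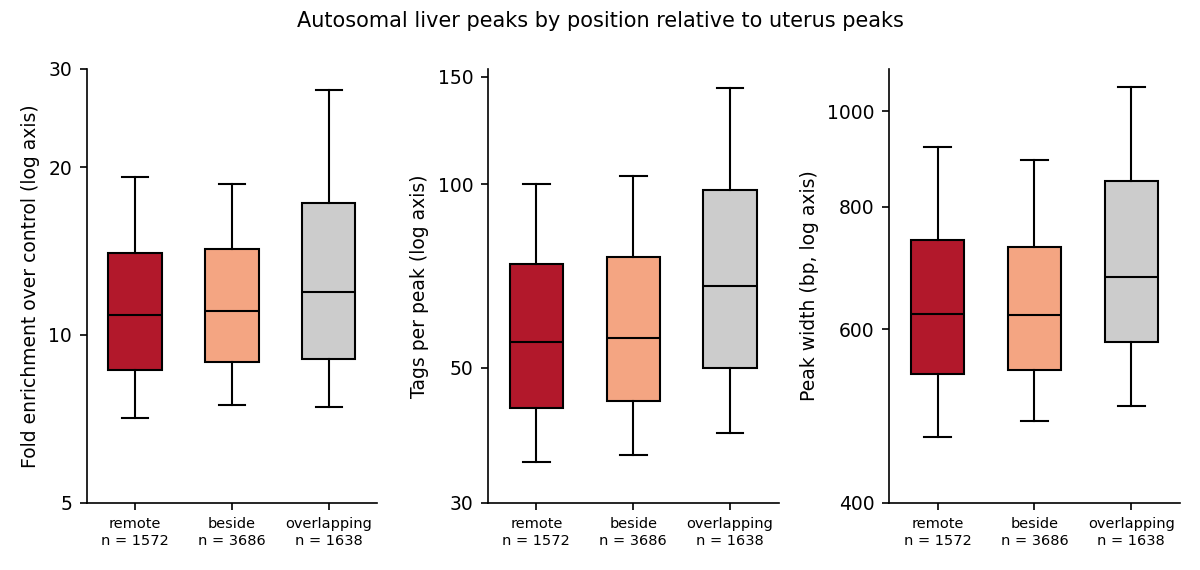
Fold enrichment over control, tags per peak and peak width in bp (log axes) of autosomal liver peaks that are remote from uterus peaks, liver-only beside uterus peaks, or overlapping them. Boxes show quartiles with the median as a line, and whiskers the percentiles that leave 10% of peaks on either side; the remote and beside boxes nearly coincide, with medians of 10.9- and 11.03-fold, and the overlapping boxes lie higher.

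Read the other way, the share of liver peaks that were remote was lower among strong peaks. In the lowest decile of tags, 28.4% of autosomal liver peaks were remote (25.2 to 31.9), and in the highest decile 14.2% (11.8 to 17.0). By fold enrichment the shares were 29.0% (25.8 to 32.5) in the lowest decile and 18.3% (15.6 to 21.3) in the highest. The deciles between held 19.9 to 25.4% by tags, and at most 25.5% by fold enrichment. By tags, the interval of the highest decile overlapped that of no other decile. By fold enrichment, the intervals of the lowest and the highest decile each overlapped those of others. By MACS score, 22.9% of the lowest decile were remote, 27.5% of decile 2 and 15.5% of the highest. A lower share among strong peaks was not particular to remote sites. From the lowest to the highest decile, peaks beside uterus sites went from 55.2 to 41.6% by tags and from 47.8 to 40.3% by fold enrichment. Overlapping peaks rose from 16.4 to 44.2% and from 23.2 to 41.4%.

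Among the remote sites themselves, strength changed little with distance from uterus binding. The median fold enrichment was 10.8 at 50 to 75 kb, 10.9 at 150 to 250 kb, 11.2 at 250 to 500 kb and 9.55 in the 28 sites beyond 500 kb, whose quartiles were 7.96 and 14.3. Median tags were 56.5, 56, 52 and 52 in the same windows. Spearman's rho across the 1572 sites was 0.0031 between fold enrichment and distance and -0.051 between tags and distance. These values describe sites of 1 library. Tags went with width (rho 0.81), whereas fold enrichment and width had a rho of -0.11.

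The strongest remote sites came from 5 chromosomes, and 4 of the 10 with the highest fold enrichment lay on chromosome 8. That chromosome held 88 of the 1572 remote sites, and a concentration of strong sites on it was not tested. Positions are those of the mm9 build in the authors' lists. The leading site, chr8:112496673-112497612, was enriched 69.8-fold with 330 tags and a score of 2697. Its nearest uterus summit was 280 kb away, and 6 other liver summits lay within 50 kb of it. The next, chr3:41368187-41369314, was enriched 46.6-fold with 335 tags, and the uterus peak nearest to it, 134 kb away, was itself well enriched at 37.4-fold in its own list.

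Other leading sites stood alone. The site chr8:79568633-79569231 was enriched 44.0-fold with 195 tags, only 54.1 kb from a uterus summit, and its nearest liver neighbour was 138 kb away. On chromosome 13, the peak at chr13:39533385-39534174 was enriched 41.8-fold with 145 tags, and the nearest other liver summit was 916 kb away. The site chr4:34829943-34830703 reached 40.8-fold with 209 tags, and its nearest liver summit was 214 kb away. With chr3:108204541-108205190, at 37.8-fold and 95 tags, 4 of the 10 had no other liver summit within 50 kb.

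The remaining 4 of these sites had company. The peak chr4:149506508-149507501 was enriched 40.8-fold with 215 tags and lay 3.95 kb from another liver summit, and, at 50.6 kb from a uterus summit, it only just met the rule. The same enrichment of 40.8-fold rested on 80 tags at chr8:126689864-126690488, where the next liver summit was 34.3 kb away. A peak 1576 bp wide, chr10:79785442-79787017, held 271 tags at 38.3-fold, with a further liver summit at 1.66 kb. The last, chr8:41977175-41977869, was enriched 37.9-fold with 108 tags and had 4 other liver summits within 50 kb. High enrichment thus occurred both in isolated sites and in groups.

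Ranking by tags gave a partly different picture. The highest count was 377 tags at chr4:133107911-133109682, a peak 1772 bp wide with 35.0-fold enrichment. The second, chr16:22898158-22901389, held 353 tags but was 3232 bp wide and only 5.95-fold enriched, which placed it at rank 1529 of the 1572 by fold enrichment. The next 2 were the chromosome 3 and chromosome 8 sites that also led by fold enrichment. They were followed by chr7:38978870-38980991, 2122 bp wide with 289 tags at 6.55-fold.

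The widest remote sites held many tags at very different enrichments. A width of at least 1500 bp, a limit set after the values had been seen, was reached by 10 remote sites, or 0.636%, against 0.957% of all autosomal liver peaks. They held 137 to 377 tags, and their fold enrichments ran from 4.21 to 38.3 with a median of 11.4. Another liver summit lay within 10 kb of 8 of the 10. The same held for 54 of the 109 remote sites at least 1000 bp wide, and for 36.9% of all remote sites. Besides the chromosome 16 and chromosome 7 peaks above, the lowest enrichments of the 10 widest were found at chr9:46037553-46039435 (7.14-fold, 155 tags) and chr5:90905433-90907169 (4.21-fold, 137 tags), which both belonged to runs described below. Tags per kb divided by fold enrichment was taken as a rough guide to the local background. It averages tags over the whole width, so the shape of a peak enters it too. Its value was 18.4 at the chromosome 16 site, 20.8 at the chromosome 7 site, 18.7 at the chromosome 5 site and 11.5 at the chromosome 9 site. Over the 10 wide peaks its median was 10.1, and over all remote sites 8.10, with 90% of them under 11.9. The quotient contains the fold enrichment by which these 4 sites were picked, so a high value there is partly built in. The part of a high local background in the low enrichment of these sites was not tested.

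**Figure D3:**
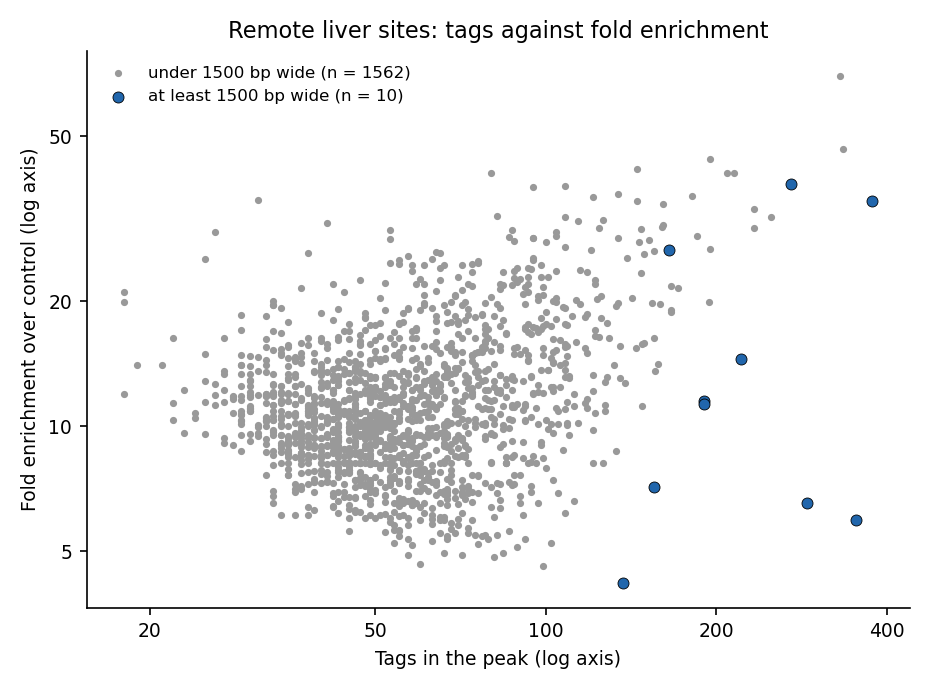
Fold enrichment over control against tags in the peak (both log axes) for the 1572 remote liver sites; blue points are the 10 peaks at least 1500 bp wide. The blue points lie at 137 tags or more, and several of them sit at low fold enrichment, down to 4.21.

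Many remote sites had a near liver neighbour, but somewhat less often than liver peaks as a whole. Another liver summit lay within 10 kb of 580 of them, or 36.9% (34.5 to 39.3), against 40.4% (39.2 to 41.6) of all autosomal liver peaks. The share was 45.5% (43.9 to 47.1) in the liver-only peaks beside uterus sites and 32.3% (30.1 to 34.6) in the overlapping peaks. Within 2 kb the shares were 12.2% in remote sites, 15.7% in those beside uterus sites and 12.1% in overlapping peaks. The median distance to the nearest liver summit was 26.3 kb in remote sites, 12.7 kb in those beside uterus sites and 28.4 kb in overlapping peaks. In 559 of the 580 cases the near neighbour was itself remote, which the rule largely fixes, because a neighbour within 10 kb must lie at least 40 kb from uterus summits. At the other end, 638 remote sites, or 40.6% (38.2 to 43.0), had no other liver summit within 50 kb. The share that did have one was 59.4% in remote sites and 68.8% over all autosomal liver peaks. It was 60.9% in overlapping peaks and 76.2% in those beside uterus sites.

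Grouped sites held more tags and were wider than solitary ones, while their enrichment was similar. The 580 with a liver summit within 10 kb had a median of 61 tags (quartiles 46.8 and 83), a median width of 648.5 bp and a median fold enrichment of 11.3 (8.96 and 14.8). The 638 without one within 50 kb had medians of 50 tags (40 and 66), 600 bp and 10.7-fold (8.53 and 14.1). Joined into runs in which successive remote summits lay at most 50 kb apart, the 1572 sites formed 1028 units. Of these, 723 were single sites, 178 were pairs and 127 had 3 or more members, which together held 493 sites, or 31.4%. Only remote summits were joined, so a single site can still have a liver peak of another kind nearby. Fewer sites, the 638 above, had no liver summit of any kind within 50 kb. Median tags were 51 in single sites (95% interval from order statistics 49 to 53), 57 in pairs (55 to 60), 59.5 in runs of 3 or 4 (55 to 64) and 63 in runs of 5 or more (57 to 73). Median fold enrichments stayed between 10.7 and 11.1 in all 4 sizes. Near neighbours can also arise where the peak caller divides a broad region, and its share was not tested.

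The run with the most members lay on chromosome 9 and held 12 remote sites within 57.0 kb, chr9:46023622-46081412. No liver peak of another kind lay in between, and the nearest uterus summits were 133 to 174 kb from its members. None of the 12 was strongly enriched: fold enrichments ran from 5.22 to 13.9 with a median of 7.47, and tags from 43 to 155 with a median of 78. The tags of the run summed to 1020. Its members fell into 5 sites over the first 19.6 kb, a gap of 21.1 kb, and 7 sites over the rest. The last 4 summits were 2.46, 1.27 and 0.596 kb apart, and 5 of the 12 peaks were at least 1000 bp wide.

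The second run, chr7:20266490-20286715, packed 8 sites into 19.6 kb, with a median spacing of 1.97 kb. It lay close to the threshold, 52.7 to 72.4 kb from uterus summits. Its strongest member was the last one, at 16.3-fold with 155 tags, and the others lay between 5.30- and 13.2-fold. The third run, chr8:112496673-112524469, was unlike the first in that a single site dominated it. The 69.8-fold site described above stood at one end, a second strong site of 29.9-fold and 147 tags lay 13.4 kb from it, and the other 5 members ranged from 6.04- to 18.9-fold. The spacing within this run was 1.71 to 9.81 kb.

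The run chr19:10175700-10278872 was the most evenly enriched and the longest of the 5. Its 7 members spanned 102 kb at spacings of 2.82 to 39.7 kb, and their fold enrichments all lay between 8.90 and 15.8, with 50 to 127 tags. The run chr5:90859951-90915129 held 7 sites in 54.5 kb at spacings of 4.67 to 15.0 kb. Its members ranged from 4.21- to 15.4-fold, and the member with the most tags, 137, had the lowest enrichment. The quotient of tags per kb and fold enrichment had medians of 11.5 in the chromosome 9 run, 10.9 in the chromosome 5 run, 8.72 in the chromosome 7 run, 8.17 in the chromosome 19 run and 7.16 in the chromosome 8 run. Fold enrichment is its denominator, so this order is partly built in. The median fold enrichments had the reverse order, from 7.47 in the chromosome 9 run to 13.3 in the chromosome 8 run.

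**Figure D4:**
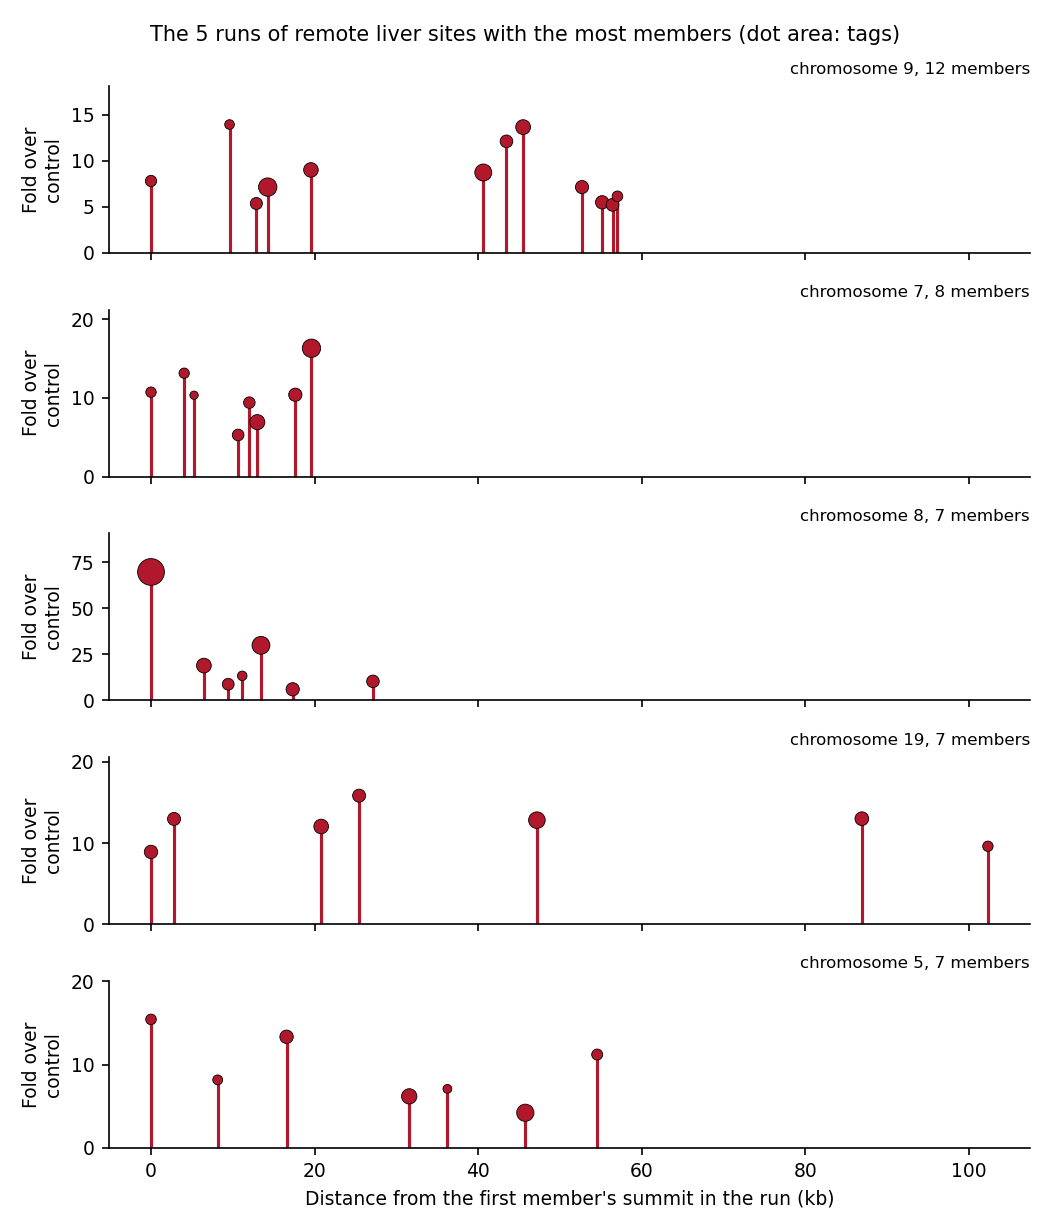
Remote liver sites in the 5 runs with the most members, drawn at their distance in kb from the first member's summit; the height of each line is fold enrichment over control and the dot area is proportional to tags. The chromosome 9 run has 12 sites of 5.22- to 13.9-fold, while the chromosome 8 run is led by a site of 69.8-fold; the vertical scales differ between panels.

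Seen from the uterus list, the remote sites filled a minority of the stretches without uterus binding. Neighbouring uterus summits more than 100 kb apart left 5699 such stretches on the autosomes, and 850 of them, or 14.9%, held a remote site. The rule leaves short stretches little room for one. Of the 2863 stretches of up to 200 kb, 7.93% held a remote site. The share was 21.5% at over 200 and up to 400 kb, 24.1% at over 400 and up to 800 kb, and 20.4% in longer ones. A single site was found in 499 stretches, 2 to 4 sites in 303 and 5 or more in 48, and these 48 held 285 of the remote sites. Another 5 remote sites lay past the first or last uterus summit of their chromosome. Stretches of up to 200 kb held 3.02 remote sites per Mb of their part beyond 50 kb, those of over 200 and up to 400 kb held 2.13, those of over 400 and up to 800 kb held 1.26, and longer ones held 0.294. The longest stretch without any remote site measured 6.19 Mb and lay on chromosome 7, between uterus summits at 7231243 and 13420324. These stretches were described after their values had been seen.

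Of the 5 sites farthest from uterus binding, only 1 was strongly enriched. The farthest, chr10:64520723-64521243, lay 1307 kb from a uterus summit and 1685 kb from any other liver summit, with 42 tags at 9.03-fold. A pair on chromosome 7, chr7:15107904-15108518 and chr7:15110488-15111194, lay 1244 and 1247 kb from uterus summits and 2.67 kb apart, with 50 tags at 6.03-fold and 66 tags at 9.10-fold. The site chr4:38281580-38282287 was 1020 kb from uterus binding, with 51 tags at 7.34-fold. The next, chr7:14716772-14717348, at 853 kb, was the exception with 65 tags at 24.1-fold, rank 71 of the 1572 by fold enrichment. The other 4 were below the median enrichment of remote sites.

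The surroundings of remote sites were poor in uterus peaks but not free of them. Within 250 kb on either side, a remote site had a median of 4 uterus summits (quartiles 2 and 7) and 3 other liver summits (1 and 6). Liver-only peaks beside uterus sites had a median of 9 uterus summits and 5 other liver summits. Other liver summits outnumbered uterus summits around 535 remote sites, or 34.0%, against 16.4% of the peaks beside uterus sites and 9.83% of the overlapping peaks. Within 500 kb on either side the medians were 11 uterus and 6 other liver summits, and the shares were 17.6%, 9.93% and 6.47%. The rule itself lowers the number of uterus summits around remote sites, so these shares describe them and test nothing. The 979 uterus peaks that were nearest to a remote site had a median of 51 tags and 13.5-fold enrichment, against 55 tags and 14.7-fold over all 24527 autosomal uterus peaks. A lower median enrichment was also found for uterus peaks nearest to liver-only peaks beside them (13.1-fold) and nearest to overlapping liver peaks (12.4-fold). The median tags of these 2 groups, 56 and 72, were not lower than the 55 over all. The quartile ranges of fold enrichment overlapped, with 9.75- to 19.7-fold around remote sites and 10.7- to 22.6-fold over all.

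Remote sites were found on all 19 autosomes, in numbers from 52 to 110. Their share of a chromosome's liver peaks ranged from 16.6% (13.75 to 19.99) on chromosome 11 to 29.3% (24.6 to 34.5) on chromosome 3, with a median of 23.3%. Uterus peaks were densest on chromosome 11, at 13.7 per Mb, and sparsest on chromosome 3, at 8.61 per Mb, but the chromosomes between did not keep this order. Chromosome 9 had the second highest share, 27.8%, at 11.4 uterus peaks per Mb, and chromosome 7 had 23.6% at 8.63 per Mb. Per Mb of span beyond 50 kb from uterus summits, the order was different. Chromosome 19 had the most, at 2.13 per Mb, followed by chromosome 9 with 1.74 and chromosome 11 with 1.71. Chromosome 12 had the fewest, at 0.796 per Mb. Median fold enrichments of remote sites ranged from 9.52 on chromosome 11 to 12.2 on chromosome 4, and median tags from 50 on chromosome 6 to 62 on chromosome 19.

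**Figure D5:**
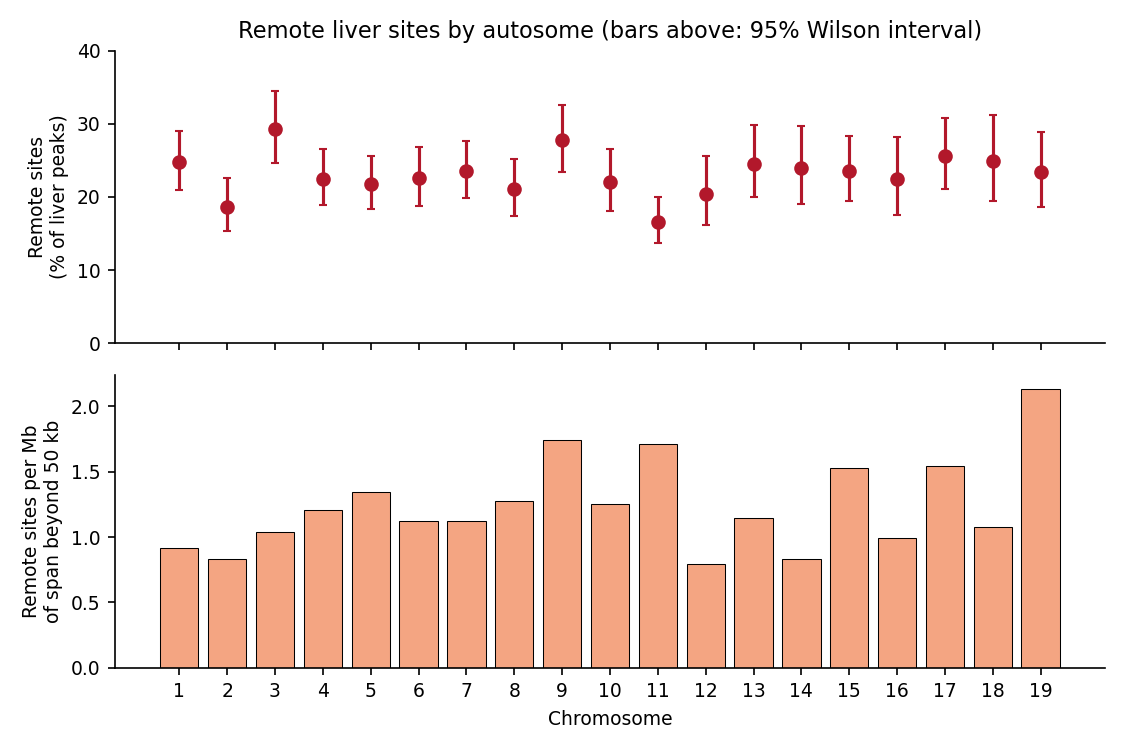
Upper panel, remote sites as a percent of the liver peaks of each autosome, with 95% Wilson intervals; lower panel, remote sites per Mb of the chromosome's span that lies more than 50 kb from uterus summits. Chromosome 3 has the highest share (29.3%) and chromosome 11 the lowest (16.6%), whereas chromosome 19 has the highest density (2.13 per Mb).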

How the data were processed

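ESR1 ChIP-seq peak lists of 1 liver and 1 uterus library were used. Per the submitters' processing notes and the file headers, the authors ran MACS 1.3.7.1 on mm9 in each library against its own input, with 50 bp tags and a p cutoff of 1e-10; no aligner is named in these sources. The deposited tags are raw counts per peak. The deposited fold enrichment is a ratio to the local background, the deposited score multiplies the −log10 of the p-value by 10, and the false discovery rate was deposited in percent. These values depend on each library's depth and were compared only within the liver list; uterus peaks gave positions and were described within their own list.

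Summits were taken as start plus summit minus 1, and an overlap needed 1 bp. Wilson and order-statistic intervals are 95% intervals. The class, distance, territory and neighbour computations were tested on simulated data, and the joining into runs was not. The rule for named sites took the 10 remote sites of highest fold enrichment, the 5 with the most tags, the 5 farthest, the 5 on either side of 50 kb and the 5 runs with the most members. Members and rules were chosen with earlier results of these data known. Genes, start sites and motifs had been planned and were not analysed here, since the genome tables at hand are of another build, so no sequence is printed. Tools were scipy 1.17.1, numpy 2.4.6 and pandas 2.3.3 under Python 3.11.15, with figures by matplotlib 3.10.9.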

Additional observations from a re-analysis of the deposited data

How the results depend on the processing

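Of 33 values recomputed under alternatives, 21 stayed within 1.5 times the count or within the 95% interval of the reported median or share. The number of remote sites, 1572, followed the rule: it was 2554 at 25 kb, 702 at 100 kb, 547 with liver peaks of a MACS score of at least 200, 2952 with uterus peaks of such a score, and 4342 against the 6932 uterus peaks of highest fold enrichment. At 100 kb the share with a liver summit within 10 kb was 33.5%, against 36.9%. With liver peaks of a score of at least 200 it was 26.3%, in a list with fewer possible neighbours, and the medians were 15.2-fold, 81 tags and 703 bp, as that cut keeps the strong peaks. The share was 25.5% for neighbours within 5 kb and 59.4% within 50 kb. Peak centres in place of summits gave 1569 sites. Leaving out liver peaks wider than 1500 bp, chosen after seeing the data, gave 1562. No paired analysis was possible because each tissue has 1 library. Sites under the cutoff in uterus are counted as absent there, and depth limits both lists.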

Other observations

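The false discovery rate in the liver list did not fall steadily with the score. A rate of at least 0.3%, a limit chosen after seeing the values, was listed for 28 remote sites. That was 1.78% of them, against 2.73% of all autosomal liver peaks. These 28 had scores of 653 to 954 and fold enrichments of 14.1 to 41.8, such as the 41.8-fold site on chromosome 13 at 0.6%. The median rate over remote sites was 0.03%. A rate of 0% was listed for 15 remote sites with scores of 993 to 2697. They were 0.954% of remote sites, against 2.18% of all autosomal liver peaks. A cutoff on this rate at 0.3% would thus remove well-enriched remote sites and keep the weakest.

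Chromosome X was outside the rule. It held 36 liver peaks, of which 15, or 41.7% (27.1 to 57.8), had no overlapping uterus peak and lay more than 50 kb from a uterus summit. These 15 had a median of 38 tags at 16.5-fold and a median distance of 179 kb from uterus summits.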
